A study of Homo sapiens with 6 samples.

Results

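The transcription factor p53 is held at a low level in unstressed cells and accumulates after DNA damage and other stresses, when it switches on genes that arrest the cell cycle, repair DNA, change metabolism or start cell death. Among its targets is MDM2, the ubiquitin ligase that marks p53 for destruction, so that the factor and its inhibitor form a negative feedback loop. Even without damage p53 keeps many of these genes at a basal level, and HepG2, a cell line from a human liver tumour, is widely used as a line with unmutated p53. Described here are 31 genes of this module, chosen by gene name from published knowledge of p53, out of 60612 genes in the deposited tables: 4 feedback regulators, 5 genes of cell cycle arrest, 5 of DNA repair and nucleotide supply, 11 of death receptor and apoptosis pathways and 6 of metabolism, mitochondria and secreted signals. All 31 names matched a single gene. The transcript of p53 itself is not analysed here.

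The data are RNA sequencing of 6 libraries labelled HepG2, 3 with the genotype label ABCF1 and 3 with the label NC-1. The series describes stable transgenic lines made to overexpress ABCF1, a ribosome-associated ATP-binding cassette protein, and its design text speaks of forms in which lysine was changed to arginine. The labels name neither the form carried, nor what NC-1 stands for, nor the promoter of the transgene, nor whether replicates were separate cultures or clones, and the p-values below therefore reflect library-to-library spread that may be only technical. Total counts ran from 62323034 to 77394510 per library.

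The ABCF1 transcript measured 102, 108 and 110 CPM under the label ABCF1 and 162, 159 and 155 CPM under NC-1, means of 106 ± 4.05 and 158 ± 3.62 (SD, n = 3; CPM is the count scaled to a common library size after TMM, edgeR's correction for library composition). The log2 fold change was -0.57 (SE 0.08, edgeR adjusted p = 0.25), and it was as large at -0.57 with a covariate described below (edgeR adjusted p = 0.00089). A lower level goes against a label of overexpression, so the wording libraries labelled ABCF1 is kept throughout. Of 12 hepatocyte markers, 11 had a mean under 0.1 RPKM (the authors' RPKM values, scaled for gene length and depth), among them ALB, and only HNF4A was higher, at 14.99 to 31.2 RPKM. Summed over those 11 markers the level was 0.0214 to 0.192 RPKM in the libraries labelled ABCF1 and 0.148 to 0.563 RPKM in NC-1. The defining secreted liver transcripts were thus near 0 in all 6 libraries, against the label, while 4 of 5 epithelial markers were at 1 RPKM or more (sum 1359 to 1752 RPKM over all libraries). Whether p53 is unmutated in these cells cannot be taken from the label HepG2 and was not tested. The levels below are therefore not assigned to unmutated p53. Of the fibroblast and leukocyte markers, 2 of 6 each reached 1 RPKM, with sums of 12.0 to 17.9 RPKM and 10.5 to 18.9 RPKM. A principal component analysis put ABCF1 replicate 3 (47.2) and NC-1 replicate 2 (42.0) away from the remaining 4 libraries (-29.3 to -6.96) along its leading axis, and no label names a batch. These 2 libraries are called the library set below, and results that change with them are given both ways. The set was read from these same counts, so p-values of fits that use it, or leave these libraries out, may be too small.

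p53 binds DNA at 2 copies of its 10-base recognition unit. This response element was searched in the 300-base windows that RefSeq (GRCh38.p14) gives around the start of each gene, from 250 bases before it to 50 after, in both directions since the unit is its own reverse complement, with the copies 0 or 1 base apart, the C and G of each core fixed and at most 2 mismatches in all. Of the 31 members 24 had a window, and 4 of them (MDM2, DDB2, FAS and AEN) held a match. That is 5 of the members' 38 windows, against 0.533% of all 35116 windows. Of the 5, 2 are overlapping MDM2 windows that hold the same element. The members were chosen from published knowledge of p53, so this comparison is not a test. The 2 windows printed whole belong to MDM2 and DDB2, which had among the smallest p of the module in the comparison below, one in each direction. Capitals mark the matched element, all windows lie on the plus strand, and no match in a window says only that these letters are not there, since many known elements lie further out or in introns.
MDM2, chr12:68808767-68809066: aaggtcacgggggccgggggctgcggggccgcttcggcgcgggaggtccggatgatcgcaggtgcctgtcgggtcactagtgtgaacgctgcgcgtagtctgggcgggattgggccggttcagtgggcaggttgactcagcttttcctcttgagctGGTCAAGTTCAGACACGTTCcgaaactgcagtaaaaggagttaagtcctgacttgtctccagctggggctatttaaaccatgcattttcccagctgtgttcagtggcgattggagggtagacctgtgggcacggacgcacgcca
DDB2, chr11:47214724-47215023: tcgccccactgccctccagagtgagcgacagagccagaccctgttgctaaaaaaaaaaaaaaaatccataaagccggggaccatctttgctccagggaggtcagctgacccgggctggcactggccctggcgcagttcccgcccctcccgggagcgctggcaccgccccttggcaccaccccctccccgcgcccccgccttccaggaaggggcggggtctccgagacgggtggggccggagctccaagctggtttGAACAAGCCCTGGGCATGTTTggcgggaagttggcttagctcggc
AEN, chr15:88621090-88621389, element only: GGGCTTGCCCGGGCATGTGG
FAS, chr10:88991181-88991480, element only: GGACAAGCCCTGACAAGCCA
The DDB2 element had 0 mismatches with a spacer of 1 base, and the other 3 had 2 mismatches. The MDM2 element begins 94 bases before the RefSeq start used here, a start that lies inside the MDM2 gene as the deposited table gives it (chromosome 12, 68808177 to 68850686). The windows of DDB2 and FAS also lie inside their genes as deposited (chromosome 11, 47214465 to 47239217, and chromosome 10, 88990531 to 89017059). The element of FAS begins 122 bases and that of AEN 34 bases before the start, and that of DDB2 begins 5 bases after it.

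Most of the module was transcribed in all 6 libraries. Of the 31 members, 26 had a mean of 1 RPKM or more, 83.9%, against 54.3% of the 19937 protein-coding genes in the table. The members above that level had a median of 9.15 RPKM against 10.3 RPKM over the 10817 protein-coding genes at 1 RPKM or more, and 13 of them lay above that median. The span was wide, from 122 RPKM for CDKN1A to 0 for SPATA18 and TP53INP1. The median over all 31 members was 6.93 RPKM, and in single libraries it ran from 5.68 to 8.11 RPKM.

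**Figure D1:**
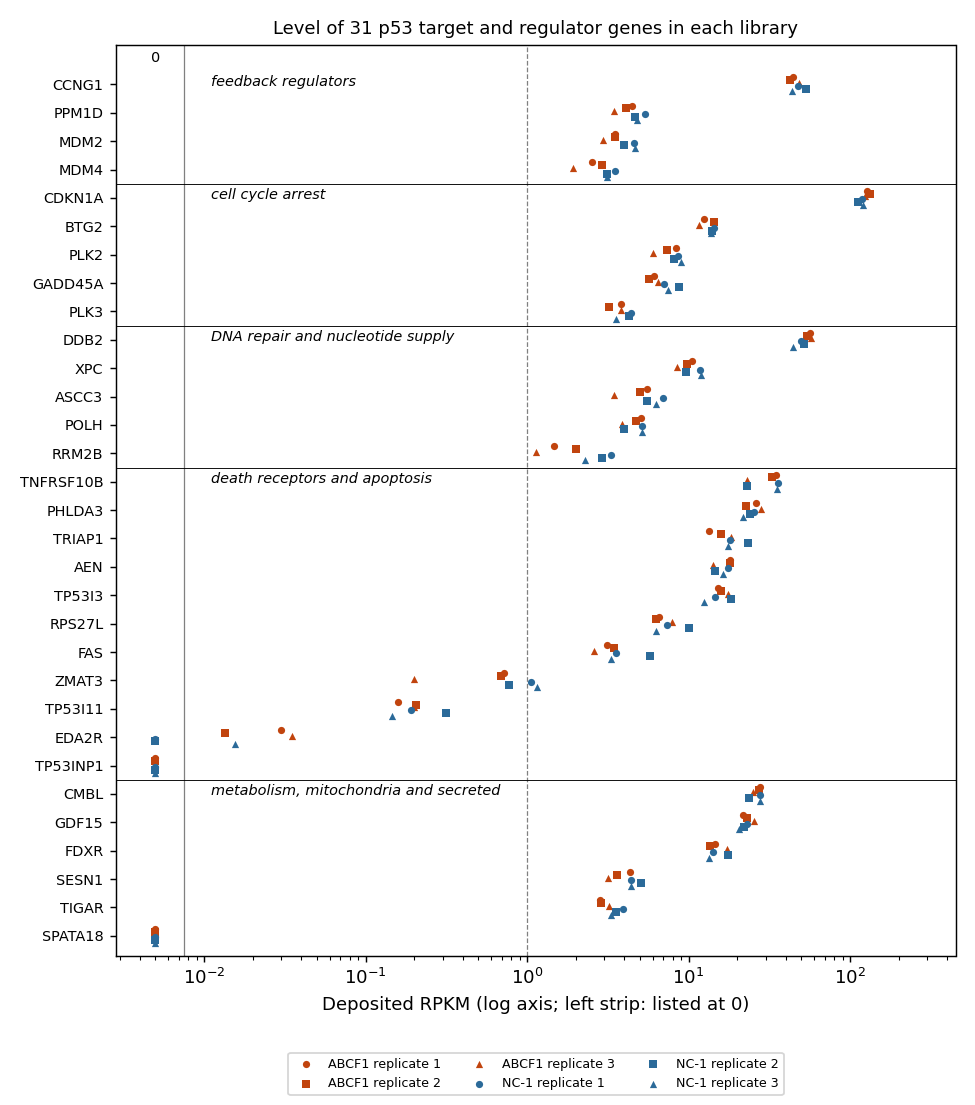
Deposited RPKM of the 31 members in each library on a log axis, grouped by role and ordered by mean within a role. Points at the left strip are listed at 0 and the dashed line marks 1 RPKM. CDKN1A stands highest near 122 RPKM, MDM2 and MDM4 lie near 3 to 4 RPKM, and 5 members at the left fall below 1 RPKM.

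The feedback regulators were low except for 1. CCNG1, which encodes cyclin G1, a partner of the phosphatase PP2A that acts on MDM2, was at 44.05, 42.6 and 48.6 RPKM in the libraries labelled ABCF1 and 47.3, 53.1 and 43.9 RPKM in NC-1. Its mean was 46.6 RPKM, below those of CDKN1A and DDB2 alone among the members. PPM1D, the WIP1 phosphatase that removes activating phosphates from p53 and its kinases, had a mean of 4.495 RPKM. MDM2 was at 3.49, 3.48 and 2.94 RPKM in the libraries labelled ABCF1 and 4.60, 3.998 and 4.68 RPKM in NC-1. MDM4, the partner of MDM2 that masks the activation domain of p53, was at 2.53, 2.93 and 1.93 RPKM against 3.52, 3.11 and 3.14 RPKM. MDM2 and MDM4 exceeded only 23.3% and 16.4% of the protein-coding genes at 1 RPKM or more, while CCNG1 exceeded 84.9%.

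Of the arrest genes, CDKN1A stood far above the rest. It encodes p21, the inhibitor of cyclin-dependent kinases through which p53 stops the cell cycle, and exceeded 94.5% of the protein-coding genes at 1 RPKM or more. Its level was 127, 133.5 and 123.4 RPKM in the libraries labelled ABCF1 and 118, 112 and 120.3 RPKM in NC-1, a spread of 6.11% of the mean over the 6 libraries (SD), the smallest among members above 1 RPKM. BTG2, an antiproliferative cofactor of mRNA deadenylation, had a mean of 13.4 RPKM. PLK2 and PLK3, stress-responsive polo-like kinases, had means of 7.92 and 3.85 RPKM, and GADD45A, a damage-induced regulator of stress kinases, 6.93 RPKM. BTG2, with 11.7 to 14.4 RPKM over the libraries, did not overlap PLK2 at 6.02 to 9.03 RPKM, whereas GADD45A (5.68 to 8.76 RPKM) overlapped PLK2.

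Among the repair genes DDB2, a subunit of the complex that finds ultraviolet damage in DNA, was highest at 56.5, 53.9 and 57.03 RPKM in the libraries labelled ABCF1 and 49.6, 51.9 and 44.4 RPKM in NC-1. XPC, which recognises helix distortions in nucleotide excision repair, followed at a mean of 10.4 RPKM. ASCC3, a helicase subunit used in repair of alkylated DNA and in ribosome quality control, had a mean of 5.46 RPKM, and POLH, a polymerase that copies past ultraviolet lesions, 4.67 RPKM. RRM2B, the p53-inducible small subunit of ribonucleotide reductase that supplies deoxynucleotides outside S phase, was lowest at 1.465, 2.02 and 1.13 RPKM against 3.32, 2.93 and 2.28 RPKM.

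The means of the 11 death genes ran from 0 to 30.8 RPKM. TNFRSF10B, a receptor for the death ligand TRAIL, was at 35.03, 32.7 and 23.2 RPKM in the libraries labelled ABCF1 and 35.7, 22.9 and 35.2 RPKM in NC-1. Its 2 low values were those of ABCF1 replicate 3 and NC-1 replicate 2, whichever label they carried. PHLDA3, an inhibitor of AKT, had a mean of 24.8 RPKM and TRIAP1, a small antiapoptotic mitochondrial protein, 17.8 RPKM. AEN, a nuclease of apoptosis, was at 18.07, 18.1 and 14.2 RPKM against 17.5, 14.5 and 16.4 RPKM. TP53I3, an oxidoreductase known as PIG3, was at 15.3, 15.8 and 17.6 RPKM against 14.5, 18.4 and 12.4 RPKM. RPS27L, a close relative of a ribosomal protein, had a mean of 7.41 RPKM and FAS, the receptor of Fas ligand, 3.64 RPKM.

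The 5 members below 1 RPKM included 4 of the death genes. ZMAT3, an RNA-binding zinc finger protein, was at 0.723, 0.687 and 0.198 RPKM in the libraries labelled ABCF1 and 1.06, 0.768 and 1.147 RPKM in NC-1. Its counts were 413, 451 and 43 against 591, 459 and 668, so that ABCF1 replicate 3 alone was low. In that library its count lay further below the other libraries than its RPKM did, and the cause was not tested. TP53I11, a p53-inducible membrane protein, was at 0.160, 0.204 and 0.199 RPKM against 0.192, 0.316 and 0.146 RPKM. EDA2R, the receptor of the A2 form of ectodysplasin, had 8, 4 and 11 counts against 0, 0 and 4. TP53INP1, a nuclear body and autophagy protein, and SPATA18, a factor in the removal of damaged mitochondrial proteins, had 0 counts in every library, and a count of 0 allows up to 3 counts, or 0.0388 to 0.0481 counts per 1e6 counts, by counting error alone. Of all protein-coding genes, 22.7% had 0 counts in every library.

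Among the metabolic and secreted members CMBL and GDF15 exceeded 74.3% and 70.7% of the protein-coding genes at 1 RPKM or more, and SESN1 and TIGAR 25.01% and 19.5%. CMBL, a hydrolase named for carboxymethylenebutenolidase, ran from 23.7 to 27.7 RPKM over the 6 libraries. GDF15, a secreted stress cytokine of the TGF-beta family, was at 21.8, 23.1 and 25.4 RPKM against 23.1, 21.98 and 20.5 RPKM. FDXR, the mitochondrial ferredoxin reductase, had a mean of 15.1 RPKM. SESN1, a sestrin that restrains mTORC1, was at 4.32, 3.63 and 3.17 RPKM against 4.43, 5.08 and 4.40 RPKM. TIGAR, a phosphatase that lowers glycolytic flux, was at 2.84, 2.86 and 3.22 RPKM against 3.905, 3.54 and 3.33 RPKM.

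No member passed the test between the groups. In edgeR's quasi-likelihood test, adjusted over 16545 genes, 0 of the 28 tested members were called at an adjusted p under 0.05, where 0% of all tested genes were called, and the smallest adjusted p of a member was 0.25. EDA2R, SPATA18 and TP53INP1 did not pass the filter on low counts. Before adjustment, p was under 0.05 for 2 members with higher values (CDKN1A and DDB2) and 4 with lower ones (RRM2B, MDM2, SESN1 and TIGAR), beside 6.27% and 8.54% of all tested genes. The DESeq2 Wald test called 1 higher member (DDB2) and 2 lower ones (MDM2 and RRM2B), beside 2.19% and 3.45% (5.65% in all) of the genes it gave an adjusted p. The median log2 fold change of the 28 members, libraries labelled ABCF1 over NC-1, was -0.02 against 0.0005 over all tested genes, with 11 members above 0 and 17 below. In 4 members (CDKN1A, DDB2, CMBL and GDF15) all 3 libraries labelled ABCF1 lay above all 3 of NC-1 in CPM, and in 7 (MDM2, MDM4, PPM1D, RRM2B, SESN1, TIGAR and ZMAT3) all lay below, beside 10.7% and 12.4% of tested genes. The TMM factors ran from 0.936 to 0.984 in the libraries labelled ABCF1 and from 1.02 to 1.05 in NC-1. This raises CPM under the label ABCF1 relative to library size alone. With library size only, the log2 fold changes were 0.12 for CDKN1A, 0.15 for DDB2, 0.029 for CMBL and 0.096 for GDF15. The 7 lower members moved further below 0, MDM2 to -0.47 and RRM2B to -0.84.

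Of the 4 feedback regulators, 3 were in the group that lay below, where 12.4% of all tested genes also lay. With the length and GC offset described below, 0 of the 4 were called lower and 1 higher. Both inhibitors of p53, MDM2 and MDM4, are among the 3. MDM2 was at 46.1, 44.0 and 37.6 CPM in the libraries labelled ABCF1 and 55.4, 52.4 and 57.6 CPM in NC-1. The highest library labelled ABCF1 thus lay below the lowest of NC-1. Its means were 42.55 ± 4.41 CPM and 55.1 ± 2.63 CPM (SD, n = 3), a log2 fold change of -0.37 (SE 0.11, edgeR adjusted p = 0.26). MDM4 was at 25.3, 28.9 and 21.4 CPM against 30.98, 29.6 and 31.1 CPM, close to touching at ABCF1 replicate 2 and NC-1 replicate 2. Its log2 fold change was -0.28 (SE 0.12, edgeR adjusted p = 0.35), and without ABCF1 replicate 3 it was -0.17. PPM1D was at 23.4, 22.3 and 19.3 CPM against 25.8, 24.3 and 24.8 CPM, with a log2 fold change of -0.20 (SE 0.11, edgeR adjusted p = 0.40) that was -0.12 without ABCF1 replicate 3. CCNG1 overlapped fully, at 117, 116 and 135 CPM against 118, 140.0 and 114 CPM, with a log2 fold change of -0.01 (SE 0.11, edgeR adjusted p = 0.97). The high CCNG1 value of each group was again that of the library set.

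CDKN1A was at 299.6, 318 and 308 CPM in the libraries labelled ABCF1 and 262, 257 and 275 CPM in NC-1. All 3 libraries labelled ABCF1 were higher, with means of 308 ± 9.20 CPM and 265 ± 9.63 CPM (SD, n = 3) and a log2 fold change of 0.22 (SE 0.08, edgeR adjusted p = 0.29). The other 4 arrest genes had log2 fold changes from -0.17 (GADD45A) to -0.02 (PLK3), and their groups overlapped.

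The repair genes split. DDB2 was at 104, 106 and 108 CPM against 86.5, 91.5 and 88.8 CPM, with no overlap. Its means were 106 ± 2.08 CPM and 88.9 ± 2.48 CPM (SD, n = 3), a log2 fold change of 0.25 (SE 0.08, edgeR adjusted p = 0.27). RRM2B was at 7.67, 9.57 and 6.39 CPM against 14.5, 13.8 and 11.4 CPM, again with no overlap. Its means were 7.88 ± 1.599 CPM and 13.2 ± 1.65 CPM (SD, n = 3), a log2 fold change of -0.75 (SE 0.18, edgeR adjusted p = 0.25). ASCC3 was at 46.4, 42.6 and 30.4 CPM against 53.8, 43.5 and 50.9 CPM, which overlapped through ABCF1 replicate 1, with a log2 fold change of -0.31 (SE 0.17, edgeR adjusted p = 0.41) that was -0.14 without ABCF1 replicate 3. XPC and POLH had log2 fold changes of -0.11 and -0.00069, and their groups overlapped.

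**Figure D2:**
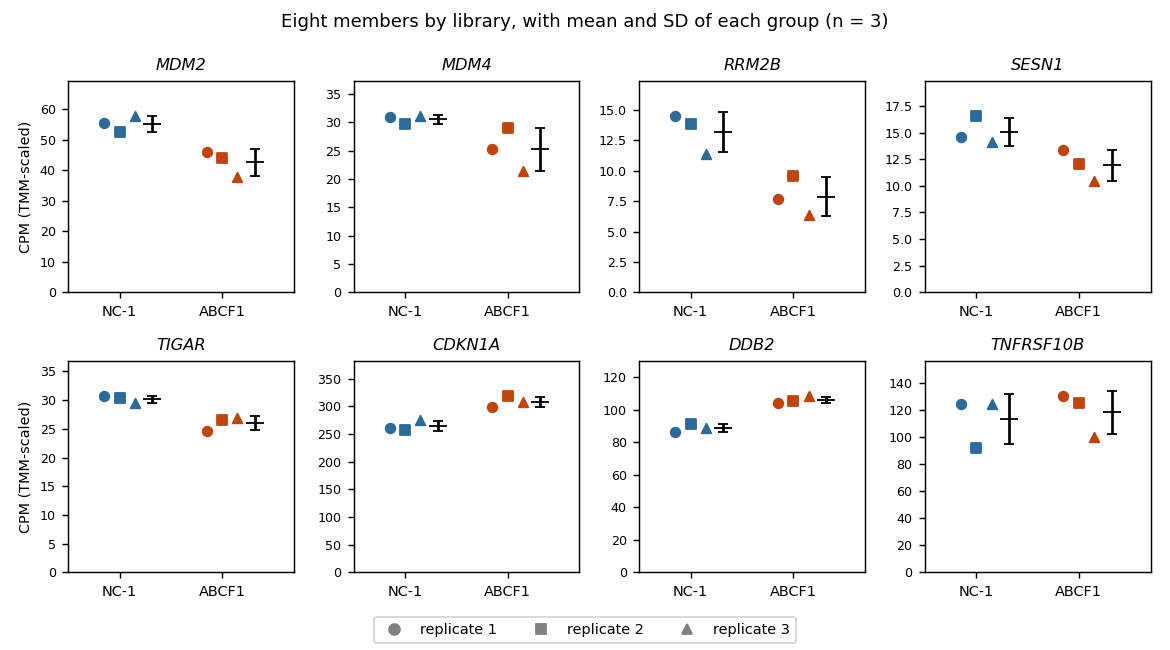
CPM (TMM-scaled) of 8 members in each library, with marker shapes for the replicate number and the mean ± SD of each group (n = 3) beside the points; each vertical axis starts at 0. MDM2, MDM4, RRM2B, SESN1 and TIGAR lie lower and CDKN1A and DDB2 higher in the libraries labelled ABCF1 without overlap, while in TNFRSF10B the low points are ABCF1 replicate 3 and NC-1 replicate 2.

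The death genes gave the least separation. TNFRSF10B was at 130.3, 125 and 100.3 CPM against 124, 92.1 and 125 CPM, with a log2 fold change of 0.06 (SE 0.15, edgeR adjusted p = 0.88). AEN was at 60.4, 63.2 and 53.1 CPM against 55.0, 48.6 and 54.7 CPM, with a log2 fold change of 0.16 (SE 0.10, edgeR adjusted p = 0.51) that was 0.10 without ABCF1 replicate 2 or without NC-1 replicate 2. TP53I3 was at 27.2, 28.3 and 31.5 CPM against 23.97, 31.1 and 20.2 CPM, with a log2 fold change of 0.21 (SE 0.16, edgeR adjusted p = 0.57) that was 0.39 without NC-1 replicate 2 and 0.075 without NC-1 replicate 3. In both genes the groups overlapped. ZMAT3 was at 6.57, 6.53 and 0.594 CPM against 8.25, 7.21 and 9.71 CPM, with a log2 fold change of -0.88 (SE 0.68, edgeR adjusted p = 0.57) that was -0.35 without ABCF1 replicate 3. TP53I11 was at 0.684, 0.869 and 0.746 CPM against 0.559, 0.738 and 0.538 CPM, with a log2 fold change of 0.33 (SE 0.34, edgeR adjusted p = 0.69), which was below 0 on the RPKM scale. FAS and AEN, the 2 other members with a response element in the window, thus had groups that overlapped, with a log2 fold change of -0.17 for FAS that was -0.051 without NC-1 replicate 2 and -0.014 without the 2 libraries of the set. With the length and GC offset described below, FAS turned to 0.0088.

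In the metabolic and secreted genes SESN1 was at 13.4, 12.0 and 10.5 CPM against 14.6, 16.5 and 14.1 CPM, with a log2 fold change of -0.33 (SE 0.13, edgeR adjusted p = 0.31). For SESN1 it was -0.17 without the 2 libraries of the set and -0.23 with the length and GC offset described below. TIGAR was at 24.6, 26.6 and 26.9 CPM against 30.7, 30.3 and 29.4 CPM, with a log2 fold change of -0.21 (SE 0.09, edgeR adjusted p = 0.33). Both were lower in 3 of 3 libraries labelled ABCF1. GDF15 was at 28.95, 31.2 and 35.9 CPM against 28.6, 28.7 and 26.5 CPM, with a log2 fold change of 0.20 (SE 0.11, edgeR adjusted p = 0.42), and its groups were separated by less than 1 CPM. It was 0.11 without ABCF1 replicate 3 and turned to -0.074 with the length and GC offset described below. CMBL was at 109.2, 111 and 107 CPM against 102, 92.8 and 104 CPM, with a log2 fold change of 0.13 (SE 0.09, edgeR adjusted p = 0.52) that was 0.079 without NC-1 replicate 2.

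The side on which a member lay followed the GC content of its transcript. Over the 28 tested members the log2 fold change had a Spearman rho of 0.75 with the GC content of the longest GENCODE 29 transcript, and of -0.44 with its length; these are descriptions across genes that share the 6 libraries. Over 12098 tested genes with a mean of 2 CPM or more the same rho was 0.67 and -0.42. Over the 16357 tested genes with a transcript value and no such limit, it was 0.49 and -0.28. The 28 members were not held to 2 CPM. Of the 13 members with GC content at or above 49.2%, the median of tested genes, 9 had a fold change above 0 (median log2 fold change 0.15), against 2 of 15 below it (median -0.21). Among all tested genes 72.9% and 27.1% were above 0 on the same sides. CDKN1A (58.05% GC) and GDF15 (62.9%) belong to the first side, and RRM2B (36.4%), MDM2 (41.9%) and MDM4 (42.4%) to the second.

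With the library set as a covariate, 3 members were called higher (CDKN1A, DDB2 and AEN) and 5 lower (MDM2, RRM2B, ASCC3, MDM4 and TIGAR) by edgeR. That fit called 12.9% of all tested genes higher and 12.5% lower, 25.3% in all. Its covariate was read from these same counts, so its p-values may be too small. In the same fit 3 of 5 epithelial markers (KRT8, KRT18 and CLDN4), 1 of 6 leukocyte markers (CD68) and HNF4A, the 1 hepatocyte marker tested, were called higher, and their part in the members' differences was not tested. The log2 fold changes were as large as without it, 0.22 (SE 0.05, edgeR adjusted p = 0.0075) for CDKN1A, 0.25 (SE 0.05, edgeR adjusted p = 0.0040) for DDB2, -0.38 (SE 0.06, edgeR adjusted p = 0.0022) for MDM2 and -0.76 (SE 0.15, edgeR adjusted p = 0.0060) for RRM2B. When an offset took out, library by library, a smoothed dependence on GC content and length too, 2 members were called higher, DDB2 (0.18, SE 0.04, edgeR adjusted p = 0.037) and CCNG1 (0.17, SE 0.04, edgeR adjusted p = 0.037), and 0 lower, beside 3.73% and 1.93% (5.66% in all) of tested genes. CDKN1A then had a log2 fold change of 0.04 (SE 0.04, edgeR adjusted p = 0.66) and MDM2 of -0.13 (SE 0.05, edgeR adjusted p = 0.17). RRM2B kept the larger part of its difference at -0.48 (SE 0.14, edgeR adjusted p = 0.073), and MDM4 was at -0.05 (SE 0.09, edgeR adjusted p = 0.78). Over the members the rho with GC content was 0.19 in that fit. Without the 2 libraries of the set, edgeR called CDKN1A and DDB2 higher and MDM2 lower, beside 5.68% and 5.1% (10.8% in all) of tested genes.

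**Figure D3:**
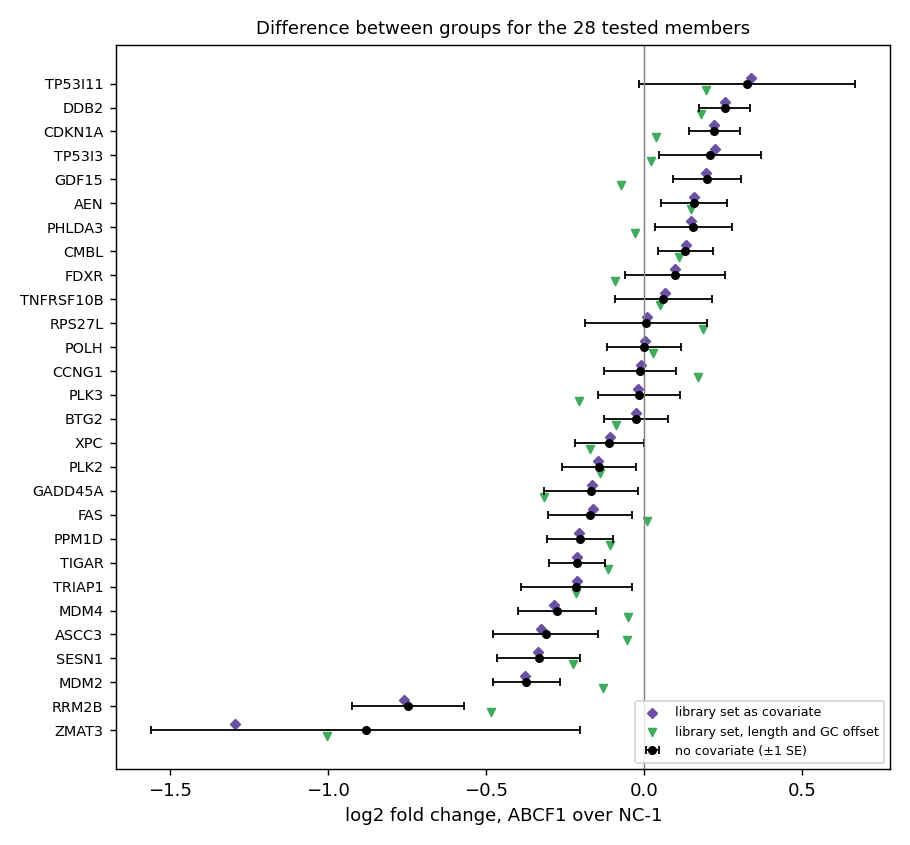
log2 fold change of the 28 tested members, libraries labelled ABCF1 over NC-1, with ±1 SE for the edgeR fit without covariates (circles) and the values with the library set as a covariate (diamonds) or with the length and GC offset added (triangles). DDB2 goes from 0.25 to 0.18 with the offset, CDKN1A from 0.22 to 0.04 and MDM2 from -0.37 to -0.13.

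**Figure D4:**
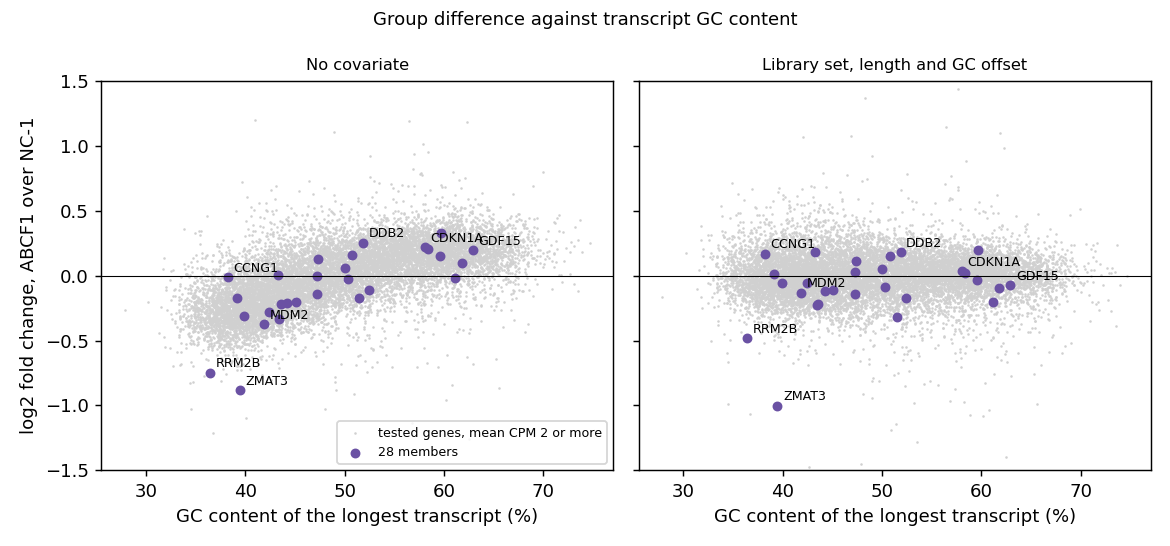
log2 fold change against the GC content of the longest transcript for tested genes with a mean of 2 CPM or more (grey) and the 28 members (purple), without covariates (left) and with the library set and the length and GC offset (right). Axes end at 1.5 on either side of 0, which leaves out 11 genes on the left and 10 on the right. On the left members and other genes climb with GC content, and on the right the slope is gone while DDB2 lies above 0 and RRM2B and ZMAT3 below.

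Members, like other tested genes, also differed between libraries in ways that did not follow the labels. In 6 members (CCNG1, PHLDA3, TRIAP1, TP53I3, FDXR and RPS27L) both ABCF1 replicate 3 and NC-1 replicate 2 lay above the other 4 libraries in CPM, and in 4 (TNFRSF10B, AEN, XPC and POLH) both lay below. These counts stand beside 17.2% and 18.9% of all tested genes, and the library set had itself been read from these counts. TNFRSF10B averaged 23.0 RPKM in those 2 libraries and 34.7 RPKM in the other 4, and RPS27L 8.99 RPKM against 6.62 RPKM. For both genes this difference was larger than that between the labelled groups.

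Other genes around p53 also had no call by edgeR without covariates. Of 17 upstream kinases and cofactors, which sense damage and modify p53, all 17 were tested and 3 had a fold change above 0 (median log2 fold change -0.19), beside 50.1% of all tested genes. The 2 most abundant were CHEK2, a checkpoint kinase, at 32.6 ± 4.19 RPKM in the libraries labelled ABCF1 against 34.6 ± 5.55 RPKM, though above 0 in the count fit with a log2 fold change of 0.13, and PRKDC, the DNA-dependent protein kinase, at 19.5 ± 6.36 RPKM against 23.9 ± 6.04 RPKM (SD, n = 3). With the library set as a covariate 7 of the 17 were called lower and 0 higher, beside the 12.5% and 12.9% of all tested genes, namely NBN, MRE11, RAD50, ATR, ATM, PRKDC and USP7, and with the length and GC offset 0 were called. The 13 apoptosis targets outside the members had 12 tested and a median of -0.0042, with SIVA1 at 150.3 ± 24.3 RPKM against 135 ± 25.9 RPKM and PERP at 87.5 ± 4.41 RPKM against 99.1 ± 16.8 RPKM; the library set fit called 1 higher (BAX) and 1 lower (APAF1), and with the offset 0. Of 41 other known targets 38 were tested, with a median of 0.09, and the library set fit called 7 higher, including SFN, and 5 lower. With the offset 2 were called higher, among them FBXO22, and 1 lower, PCNA, beside 3.73% and 1.93% of tested genes. FBXO22 had a log2 fold change of 0.32 in that fit only. It was 0.00067 without covariates and -0.0017 with the library set alone. SFN, the 14-3-3 sigma protein, was at 183 ± 37.6 RPKM against 161 ± 24.9 RPKM, and PCNA, the replication clamp, at 125 ± 13.3 RPKM against 146 ± 22.4 RPKM.

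Genes that p53 represses through p21 and the DREAM complex were abundant. All 10 were above 1 RPKM, with a median of 65.0 RPKM. Of them 7 had a fold change above 0 (median log2 fold change 0.10), beside 50.1% of all tested genes. AURKA, a mitotic kinase, was at 90.3 ± 5.30 RPKM in the libraries labelled ABCF1 against 94.9 ± 4.98 RPKM, and CCNB1, cyclin B1, at 90.5 ± 2.45 RPKM against 91.2 ± 12.1 RPKM (SD, n = 3). In the TMM-scaled counts both turned the other way, with log2 fold changes of 0.034 and 0.087. The library set fit called 3 higher, PLK1, BIRC5 and CDC20, and 1 lower, CDK1, beside 12.9% and 12.5% of all tested genes. With the offset PLK1 was called higher and 0 lower, beside 3.73% and 1.93%. Of the p53 relatives, TP73 was at a mean of 2.01 RPKM and TP63 at 0.0713 RPKM. The ASPP proteins PPP1R13L, the inhibitory iASPP, and TP53BP2 were at 41.8 ± 4.65 RPKM against 38.2 ± 8.91 RPKM and 9.97 ± 1.43 RPKM against 12.2 ± 2.19 RPKM; of these 5 genes the library set fit called PPP1R13L higher and TP53BP2 lower, and with the offset 0.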

How the data were processed

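RNA sequencing libraries were made from 1 µg of Trizol-extracted RNA with a TruSeq kit, per the labels' protocols. The authors deposited whole-number gene counts without normalization, and RPKM values for the same libraries. The RPKM values did not follow the counts in every gene, as ZMAT3 shows. HISAT2, StringTie, edgeR, Trimmomatic, FastQC, CASAVA 1.8 and the build GRCh38 are named per the submitters' processing notes. What each tool did, the annotation release and any use of strand: not given in the sources used here. If strand was not used, reads of overlapping antisense genes cannot be told apart.

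Group differences in counts came from edgeR 4.0.16 under R 4.3.3, as two-sided quasi-likelihood tests after TMM scaling and filterByExpr, with Benjamini-Hochberg adjustment over 16545 genes; SE is the size of the log2 fold change over the square root of F. Levels are the deposited RPKM. Other fits used DESeq2 1.42.0, limma 3.58.1 on counts or on log2(RPKM + 1) and log2(RPKM + 0.1), which understates changes of low genes, other scalings and filters, a replicate block, and each library left out. The length and GC offset came from mgcv 1.9.3 smooths over genes of 2 CPM or more, using GENCODE 29 transcripts, which gave values for 98.9% of tested genes. The edgeR step was tested on simulated data. Within groups, pairs of libraries gave a chi-square of at least 11.4 times its degrees of freedom, so no pair agreed within sampling noise. The limit of 3 counts given for members at 0 covers counting error only, while SD and SE also hold spread between libraries. Members, lists, fits and the naming rule were chosen with earlier results of these data known; the rule named MDM2, MDM4, CDKN1A, the 5 members of highest RPKM, all under 1 RPKM and the 6 of smallest p in each direction, and up to 3 called or the 2 most abundant genes of other lists. ASCC3 was added after its values were seen. A gene of these lists is counted but not reported here by name.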

Additional observations from a re-analysis of the deposited data

How the results depend on the processing

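No member was called under the other scalings and filters, limma-voom, limma-trend on RPKM, an adjusted p under 0.01 or with any 1 library left out. The replicate block called 0 members and 0 other pathway genes. Same-numbered libraries deviated from their group means with correlations of 0.11, -0.11 and -0.15. The 2 libraries apart carry different numbers, so these values cannot tell whether same-numbered libraries were prepared together. Called members numbered 3 by the DESeq2 Wald test, 8 with the library set, 2 with the offset on top and 3 without the 2 libraries apart, and called other pathway genes 5, 27, 4 and 10. Among all genes with an adjusted p, these fits called 5.65%, 25.3%, 5.66% and 10.8% in the same order. The median log2 fold change of the members was -0.16 with limma-trend on log2(RPKM + 0.1). The median RPKM of the members was 5.68 in ABCF1 replicate 2, 6.02 in ABCF1 replicate 3 and 8.11 in NC-1 replicate 2 alone. Of 17 members whose fold change was followed over up to 19 settings, 13 never changed sign. These 17 were named partly for small p in these same data, so that count does not describe the module. Of the other 11 tested members, 5 (FDXR, BTG2, RPS27L, POLH and PLK3) changed sign with 1 library left out. With the offset FAS turned to 0.0088, PHLDA3 to -0.030, FDXR to -0.092 and POLH to 0.027. CCNG1 turned to 0.17 with the offset and 0.0078 without the 2 libraries apart, and with 1 library left out ran from -0.083 to 0.083. GDF15 turned to -0.074 with the offset. TNFRSF10B turned to -0.038 with library size only and to -0.040 and -0.039 on log2(RPKM + 0.1) and log2(RPKM + 1), and with 1 library left out ran from -0.071 to 0.17. TP53I11 turned to -0.11 and -0.034 with a pseudocount of 0.1 and 1. The cause was not tested.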

Other observations

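Several members share their locus with another transcribed gene on the opposite strand, so the split of their reads depends on how strand was used. TP53INP1 had 0 counts in every library while NDUFAF6, which overlaps it, took 354 to 624 counts per library. RPS27L overlaps LACTB (2017 to 2696 counts), POLH overlaps GTPBP2 (4682 to 6448 counts), TNFRSF10B overlaps RHOBTB2 (1016 to 1373 counts) and FAS overlaps ACTA2 (288 to 492 counts). MDM2 overlaps the carboxypeptidase M gene, which took 1907 to 2565 counts.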
